A study of Homo sapiens with 18 samples.

Results

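The immunoglobulin genes are the segments and constant regions from which antibody heavy and light chains are built. They were taken as every gene of the deposited count table whose gene type is an immunoglobulin constant (C), variable (V), joining (J) or diversity (D) gene, with no use of measured values. These were 213 of 60656 genes, 14 of them C, 144 V, 18 J and 37 D segments. Of the 213, 90 lie on chromosome 14 (heavy chain), 52 on chromosome 2 (kappa), 48 on chromosome 22 (lambda) and 23 elsewhere. In all 18 libraries together 79 of them had no count, among them all 37 D segments, 39 V, 2 J and 1 C gene (IGLC1, which overlaps an exon of IGLL5 on the same strand). In U2932 122 had at least 1 count and in Ly1 113.

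RNA was sequenced from U2932 and Ly1, cell lines grown from human DLBCL (diffuse large B-cell lymphoma) and labelled as its ABC (activated B-cell-like) and GCB (germinal centre B-cell-like) forms. Each line was given SGC-GAK-1, an inhibitor of cyclin G-associated kinase, at 1 µM for 12 h or 24 h, or DMSO, the vehicle, for which no time is stated. There were 3 libraries in each of the 6 groups, and the same 3 DMSO libraries of a line serve both times. The lines were kept in different media, so line and medium cannot be told apart. Nothing in the labels says that the 3 libraries of a group came from separate cultures, so a p-value here sets a difference against the spread among these libraries and no more. Total counts per library ran from 22549853 to 29386802, and 3 counts, the limit that a count of 0 allows, corresponded to 0.104 to 0.138 CPM (counts per 1000000 of the scaled library size). Such limits cover counting error only. The B cell markers MS4A1, CD79A, CD79B, PAX5 and CD22 were at 1 CPM or more in both lines. Of 5 T cell markers CD2 was at 0 in both lines, and TRAC was at 6.19 ± 1.29 CPM in U2932 and 27.6 ± 2.15 CPM in Ly1 (SD, n = 3 DMSO libraries each). CD3G passed 1 CPM in the replicate 3 libraries of Ly1, at 2.08 CPM in DMSO, 1.01 CPM at 12 h and 1.16 CPM at 24 h. Replicate 3 of U2932 stood apart from replicates 1 and 2 in all 3 groups for the lambda genes, as described with the results it touches.

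A developing B cell cuts and joins one V, one D and one J segment at the heavy chain locus, and one V and one J at a light chain locus, so that all descendants of a cell share the same joined segments. For segments that point the same way, joining removes the DNA between them from that chromosome, and the promoter of the chosen V comes under the control of enhancers near the constant genes. The isotype is set by which constant gene follows the joined V, mu (IGHM) and delta (IGHD) first and gamma, epsilon and alpha after class switching, and most B cells use kappa or lambda but not both. In these bulk libraries, fewer cells with a transcript and less of it per cell cannot be told apart. Counts stand for reads placed on germline gene models.

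Of the V segments, IGHV4-39 led the heavy chain counts of U2932 and is shown because it carries that result. The sequences printed here are the reference ones of GENCODE release 29 (GRCh38), 5′ to 3′ on the minus strand, and hold no bases read from these cells. IGHV4-39 (chr14:106421711-106422010) is given from its last exon as the final 300 bases. The capitals mark TATTACTGT, the codons for tyrosine, tyrosine and the conserved cysteine that end framework 3. Read on the coding strand only, these letters were in the last exon of 101 of 142 V segments with a V gene name (71.1%).
IGHV4-39: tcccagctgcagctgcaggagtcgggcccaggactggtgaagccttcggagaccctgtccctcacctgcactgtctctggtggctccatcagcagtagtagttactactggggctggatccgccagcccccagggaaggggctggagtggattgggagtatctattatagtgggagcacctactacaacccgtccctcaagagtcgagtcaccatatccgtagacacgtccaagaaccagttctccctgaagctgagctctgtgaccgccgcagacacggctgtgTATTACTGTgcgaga

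The leading heavy chain and kappa V segments of Ly1 in DMSO, pseudogenes left out, were IGHV1-24 (chr14:106276548-106276607) and IGKV3-11 (chr2:89027171-89027230). The heavy chain V pseudogene IGHV5-78 was higher in Ly1, at 23.4 ± 1.62 CPM beside 8.81 ± 1.98 CPM for IGHV1-24 (SD, n = 3 DMSO libraries). The last 60 bases of IGHV1-24 and IGKV3-11 show the stretch that meets the D or J segment when a V segment is joined. Whether either is joined in Ly1 was not tested.
IGHV1-24: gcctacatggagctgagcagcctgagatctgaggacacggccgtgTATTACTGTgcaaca
IGKV3-11: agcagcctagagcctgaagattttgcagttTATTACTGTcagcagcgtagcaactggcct

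The 4 heavy chain J segments with more than a trace of counts and the leading kappa J segment are shown because the lines differed in which IGHJ segments had counts. The capitals mark TGGGG in IGHJ (all 6 IGHJ segments hold it) and TTCGG in IGKJ1 (4 of 5 IGKJ segments hold it), the start of the tryptophan-glycine or phenylalanine-glycine motif of the joined chain. IGHJ3 (chr14:105864587-105864635), IGHJ4 (chr14:105864215-105864260), IGHJ5 (chr14:105863814-105863862), IGHJ6 (chr14:105863198-105863258) and IGKJ1 (chr2:88861886-88861923) are on the minus strand. IGHJ4 and IGHJ5 share their last 35 bases, and each shares its last 17 with IGHJ6.
IGHJ3: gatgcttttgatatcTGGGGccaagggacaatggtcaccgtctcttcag
IGHJ4: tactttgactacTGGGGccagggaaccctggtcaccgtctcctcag
IGHJ5: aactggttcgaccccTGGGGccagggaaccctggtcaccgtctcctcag
IGHJ6: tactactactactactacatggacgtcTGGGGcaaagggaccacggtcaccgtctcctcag
IGKJ1: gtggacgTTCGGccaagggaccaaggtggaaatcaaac

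Together the 213 genes took 1.81 ± 0.203% of all counts in U2932 and 0.498 ± 0.0329% in Ly1 in DMSO (SD, n = 3 each). Scaled to a common library size, this was 18990, 19116 and 16101 CPM in U2932, against 4813, 4948 and 5226 CPM in Ly1. The ranges did not overlap.

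The heavy chain constant counts were nearly all IGHM in U2932, and IGHM with several other constant genes in Ly1. Counts of a constant gene do not tell transcripts with a joined V from those without one. They therefore do not show which isotypes of heavy chain a line makes. IGHM (chr14:105851705-105856218), the mu heavy chain of IgM, was counted at 11456, 11582 and 9785 CPM in DMSO libraries of U2932 and at 2849, 2919 and 3071 CPM in those of Ly1. Every U2932 library was higher than every Ly1 library. This was 98.5 ± 0.0537% of all heavy chain constant counts in U2932 and 79.8 ± 1.30% in Ly1 (SD, n = 3 each). Over all 9 libraries the share ran from 98.3 to 98.6% in U2932 and from 78.4 to 81.6% in Ly1.

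Behind IGHM, U2932 had IGHG3 (gamma 3) at 129, 128 and 86.1 CPM and IGHA1 (alpha 1) at 21.4, 21.6 and 36.9 CPM in DMSO. IGHD, the delta chain, was at 16.5, 15.4 and 8.92 CPM. Replicate 3 was lower than the others for IGHG3 and IGHD and higher for IGHA1.

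In Ly1 the next genes were IGHG1 (gamma 1) at 300, 321 and 321 CPM and IGHE (epsilon) at 131, 140 and 219 CPM in DMSO. IGHG1 made up 8.51 ± 0.302% and IGHE 4.39 ± 1.04% of the heavy chain constant counts of Ly1 (SD, n = 3 each). IGHE had only 0 to 5 counts in any U2932 library. IGHD followed in Ly1 at 91.5, 98.6 and 122 CPM, IGHA2 (alpha 2) at 58.3, 65.1 and 86.5 CPM and IGHG4 (gamma 4) at 58.43, 59.98 and 59.61 CPM. IGHG2 (gamma 2) was the lowest of the heavy chain constant genes in Ly1, with 0.555, 1.22 and 0.736 CPM, and in U2932 it had 1.72, 1.45 and 0.668 CPM. An exon of IGHG2 and one of IGHG4 overlap a microRNA gene on the opposite strand, and the use of strand in counting is not given in the sources used here. Per kilobase of exon, which allows genes to be compared, IGHM averaged 5848 CPM in U2932 and 1575 CPM in Ly1. On that scale IGHG1 averaged 1.76 CPM in U2932 and 114 CPM in Ly1, and IGHE 0.0653 CPM in U2932 and 101 CPM in Ly1.

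Kappa was the leading light chain in both lines. IGKC (chr2:88857161-88857683), the kappa constant gene, was at 2620, 2448 and 2147 CPM in U2932 and at 1100, 1103 and 1073 CPM in Ly1 in DMSO. It held 99.2 ± 0.272% of light chain constant counts in U2932 and 95.3 ± 0.760% in Ly1 (SD, n = 3 each), with no overlap between the lines over 9 libraries each. These shares hold no count of IGLC1, which overlaps IGLL5, and leave IGLL5 out. In DMSO IGLL5 was at 58.9 ± 12.7 CPM in U2932 and 31.7 ± 11.4 CPM in Ly1. The lambda constant genes summed to 19.9 ± 8.12 CPM in U2932 and 53.9 ± 8.30 CPM in Ly1 (SD, n = 3 each). Whether reads of IGLC1 were counted for IGLL5 was not tested. Among the lambda constant genes, IGLC2 was at 18.3, 18.1 and 10.1 CPM in U2932 and at 21.6, 21.0 and 27.7 CPM in Ly1. IGLC3 was at 6.96, 5.67 and 0.432 CPM in U2932 and at 9.507, 8.997 and 13.16 CPM in Ly1. IGLC7 had no count in any of the 9 U2932 libraries and 17.7, 19.5 and 22.6 CPM in Ly1, at least 165-fold higher in Ly1 when U2932 is set to 3 counts per library.

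**Figure D1:**
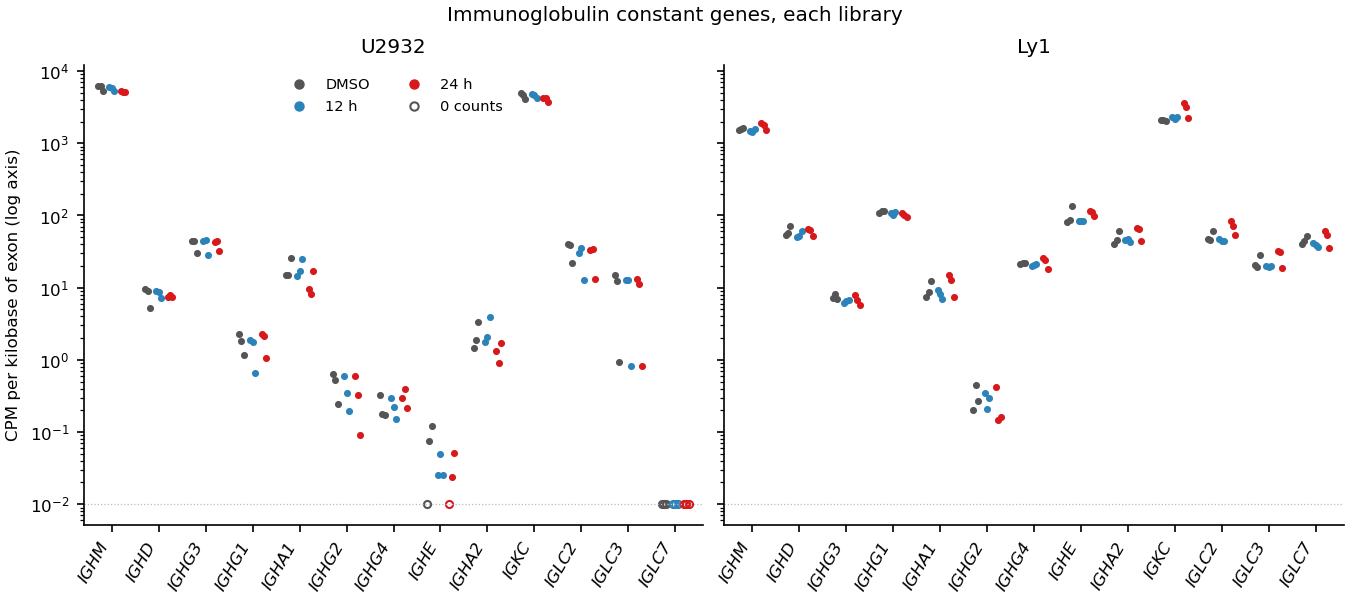
CPM per kilobase of exon (log axis) of 13 immunoglobulin constant genes in each of the 9 libraries of U2932 (left) and of Ly1 (right), coloured by DMSO, 12 h and 24 h of SGC-GAK-1; open circles on the dotted line are libraries with 0 counts. IGHM and IGKC lead in both lines, IGHE and IGLC7 are near or at 0 in U2932 alone, and IGLC3 of U2932 has 1 library far below the other 2 in each group.

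In U2932 a single V segment held nearly all the counts of its locus on both chains. IGHV4-39 was at 1800, 1798 and 1424 CPM in DMSO, 98.5 ± 0.271% of heavy chain V counts, and IGKV3-20 at 2728, 2919 and 2399 CPM, 98.2 ± 0.509% of kappa V counts (SD, n = 3 each). Per kilobase of exon, IGHV4-39 averaged 3939 CPM beside 5848 CPM for IGHM, and IGKV3-20 averaged 6705 CPM beside 4599 CPM for IGKC. The next heavy chain V segment, IGHV1-69D, averaged 12.8 ± 0.424 CPM and the third, IGHV3-72, 2.60 ± 1.80 CPM. The next kappa V segments were IGKV4-1 at 17.4 ± 1.97 CPM and IGKV5-2 at 13.7 ± 4.46 CPM (SD, n = 3 each).

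Ly1 had no heavy chain or kappa V segment near the level of IGHM or IGKC. Per kilobase of exon, IGHV1-24 averaged 21.4 CPM beside 1575 CPM for IGHM, and IGKV3-11 averaged 58.8 CPM beside 2088 CPM for IGKC. IGHV4-39 had no count in any of its 9 libraries, so that U2932 was at least 12890-fold higher when Ly1 is set to 3 counts per library. IGHV1-24 was at 7.88, 7.46 and 11.1 CPM and IGHV3-23 at 6.14, 6.16 and 11 CPM in DMSO libraries of Ly1. They made up 40.3 ± 2.07% and 35.1 ± 6.402% of its heavy chain V counts (SD, n = 3 each), and 18.04% and 15.8% with heavy chain V pseudogenes in the total. This order did not hold in every library of Ly1. At 12 h IGHV1-24 held 35.1 ± 2.07% and IGHV3-23 35.8 ± 4.14% (SD, n = 3 each), and in replicate 3 they held 32.9% and 40.5%. Neither had a count in U2932, and Ly1 was at least 73.0-fold higher for IGHV1-24 and at least 64.4-fold higher for IGHV3-23. IGHV4-31 came next in Ly1, at 2.05, 1.86 and 0.996 CPM.

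The leading kappa V segment of Ly1, IGKV3-11, was at 21.5, 24.3 and 23.4 CPM, 55.5 ± 3.87% of kappa V counts, and had 0, 0 and 0.196 CPM in U2932. IGKV3-20 followed in Ly1 at 3.33, 5.11 and 3.16 CPM and IGKV2-30 at 2.88, 1.90 and 3.29 CPM.

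Heavy chain V counts per 100 heavy chain constant counts were 15.7, 15.5 and 14.6 in U2932, against 0.572, 0.523 and 0.662 in Ly1 in DMSO. Kappa V counts per 100 IGKC counts were 106, 121 and 114 in U2932, against 3.394, 3.802 and 4.268 in Ly1. At both loci the groups were far apart, and the exact two-sided permutation test gave p = 0.1, the smallest that 3 against 3 libraries allow.

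The lambda V segments were low in both lines but near their constant genes. Per kilobase of exon, IGLV6-57 averaged 46.9 CPM beside 33.6 CPM for IGLC2 in U2932, and IGLV1-44 averaged 46.0 CPM beside 50.8 CPM for IGLC2 in Ly1. IGLV6-57 led in U2932 at 15.1, 14.9 and 19.7 CPM, and IGLV3-1 followed at 5.80, 5.39 and 1.45 CPM and IGLV5-45 at 4.86, 5.15 and 0.432 CPM. IGLV1-44 led in Ly1 at 21.8, 22.1 and 20.5 CPM, followed by IGLV6-57 at 9.58, 10.7 and 11.2 CPM and IGLV1-47 at 2.60, 2.23 and 4.46 CPM. Each of IGLV6-57 and IGLV1-44 had counts in every library of both lines. Lambda V counts per 100 lambda constant counts were 190, 194 and 285 in U2932 and 106, 110 and 98.1 in Ly1.

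Reads from one V segment can be placed on a near copy, so low counts of close relatives are uncertain. IGKV3D-20 is 98.3% identical to IGKV3-20 over the last exon and its counts in U2932 came to 0.0563% of those of IGKV3-20. An orphon V segment of the same family, outside the kappa locus, is 94.0% identical, and its counts came to 0.0661%. IGHV4-61 is 94.5% identical to IGHV4-39, and its counts in U2932 came to 0.125% of those of IGHV4-39. IGHV1-69D and IGHV1-69 are 99.0% identical, so their split is uncertain.

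Counts of IGHV genes, pseudogenes left out, also differed between stretches of the heavy chain locus. In U2932 the 26 IGHV genes between the J segments and IGHV4-39 held 59 counts in 9 libraries together, 53 of them in IGHV4-28, which is 92.6% identical to IGHV4-39. The 21 genes beyond IGHV4-39 held 5111 counts, and 16 of them had at least 10. In Ly1 the 16 IGHV genes between the J segments and IGHV3-23, which came second to IGHV1-24 in DMSO, held 1 count. With Ly1 split at its leader IGHV1-24, as U2932 was at IGHV4-39, the 17 genes on the J side held 1653 counts. Of these 1652 were in IGHV3-23, and the 30 genes beyond IGHV1-24 held 1021. The 8 genes from IGHV3-23 to IGHV4-34 held 4247 counts in Ly1, and the 24 beyond IGHV4-34 held 392. IGHV4-34 led in neither line, and no rule independent of the counts set it as an edge. This split therefore describes the counts and is no test of position. Pseudogenes did not follow this pattern throughout: IGHV5-78, beyond IGHV4-39, alone held 5126 counts in Ly1 and 4073 in U2932. The V pseudogenes IGHVII-22-1 and IGHVIII-22-2 held 364 and 261 counts in Ly1 and 0 in U2932. By their names they fall between IGHV3-21 and IGHV3-23, in the stretch where the IGHV genes of Ly1 held 1 count. Their coordinates were not compared. At the kappa locus counts lay on both sides of the leading segment. In U2932 all 12 IGKV genes between the J segments and IGKV3-20 were counted, with 6994 counts, and the 31 beyond it held 2688. In Ly1 the 7 genes between the J segments and IGKV3-11 held 1301 counts and the 36 beyond it 2669. No cause of these patterns was tested.

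**Figure D2:**
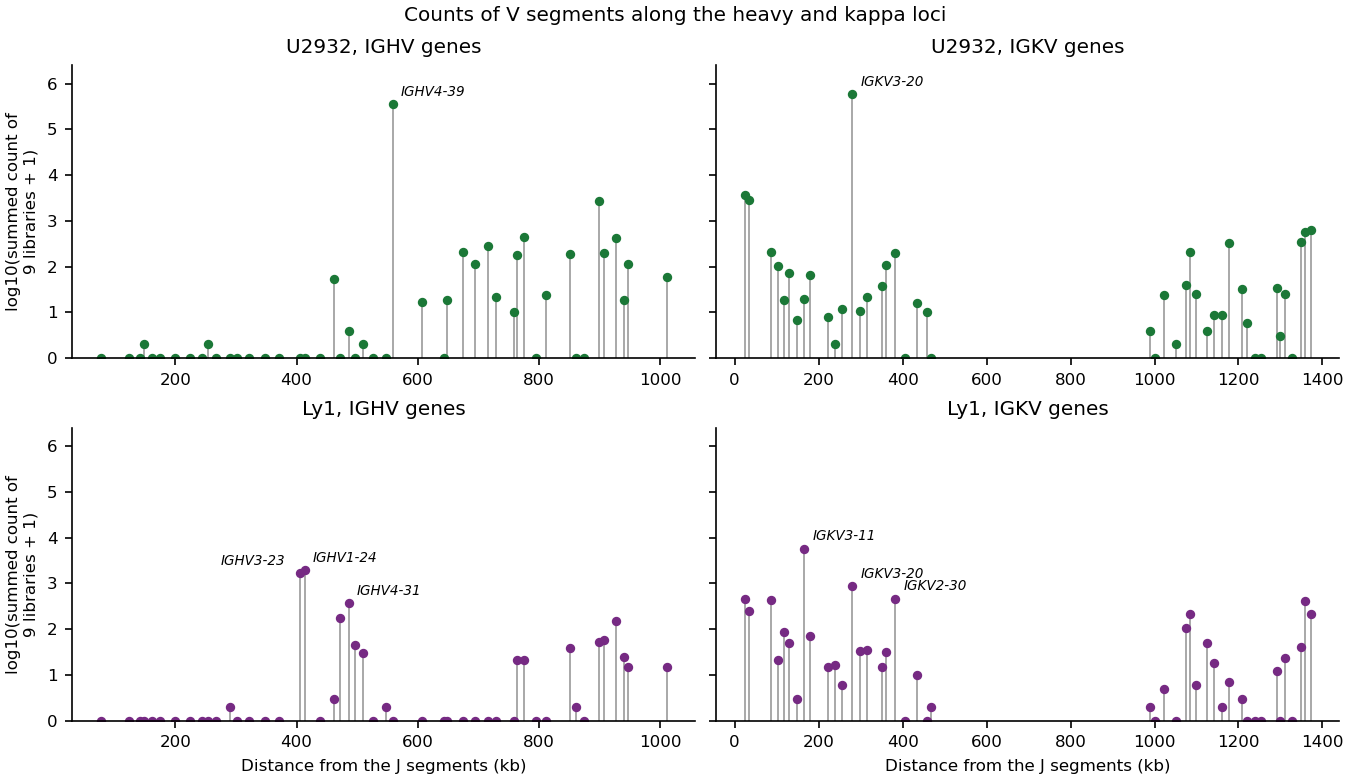
Summed count over 9 libraries, as log10(count + 1), of each heavy chain (left) and kappa (right) V segment against its distance in kb from the J segments, in U2932 (top) and Ly1 (bottom); the leading segments are named. The 26 heavy chain segments nearest the J segments in U2932 hold 59 counts. The 16 nearest in Ly1 hold 1, and IGHV3-23, next to them on the J side of the leader IGHV1-24, holds 1652. Kappa segments on both sides of the leader have counts. Pseudogenes are not drawn.

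The J segments differed between the lines at the heavy chain. U2932 had counts of IGHJ3 (0.898, 0.563 and 1.89 CPM), IGHJ4 (4.64, 3.34 and 6.76 CPM), IGHJ5 (4.82, 4.10 and 7.78 CPM) and IGHJ6 (5.95, 3.86 and 9.23 CPM) in DMSO. Replicate 3 was the highest for each of these 4. Ly1 had IGHJ5 at 9.44, 11.4 and 10.0 CPM and IGHJ6 at 7.11, 7.50 and 6.93 CPM, and no count of IGHJ3 or IGHJ4 in 9 libraries. U2932 was at least 37.8-fold higher for IGHJ4 and at least 8.59-fold higher for IGHJ3. IGHJ4 has its last 35 bases in common with IGHJ5, so within the segment only its first bases, shown above, differ. Bases that flank the segments were not compared. Of the kappa J segments IGKJ1 led in both lines, at 28.2, 23.7 and 27.1 CPM in U2932 and 12.2, 12.8 and 11.9 CPM in Ly1. IGKJ5, IGKJ4 and IGKJ3 followed in U2932, with means of 10.1, 7.13 and 6.27 CPM. The same 3 had means of 2.02, 1.23 and 1.27 CPM in Ly1. IGKJ2, which shares its place with another gene on the same strand, had no count. The lambda J segments were below 1 CPM on average in both lines, save IGLJ3 of Ly1 at 1.44 ± 0.575 CPM (SD, n = 3).

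**Figure D3:**
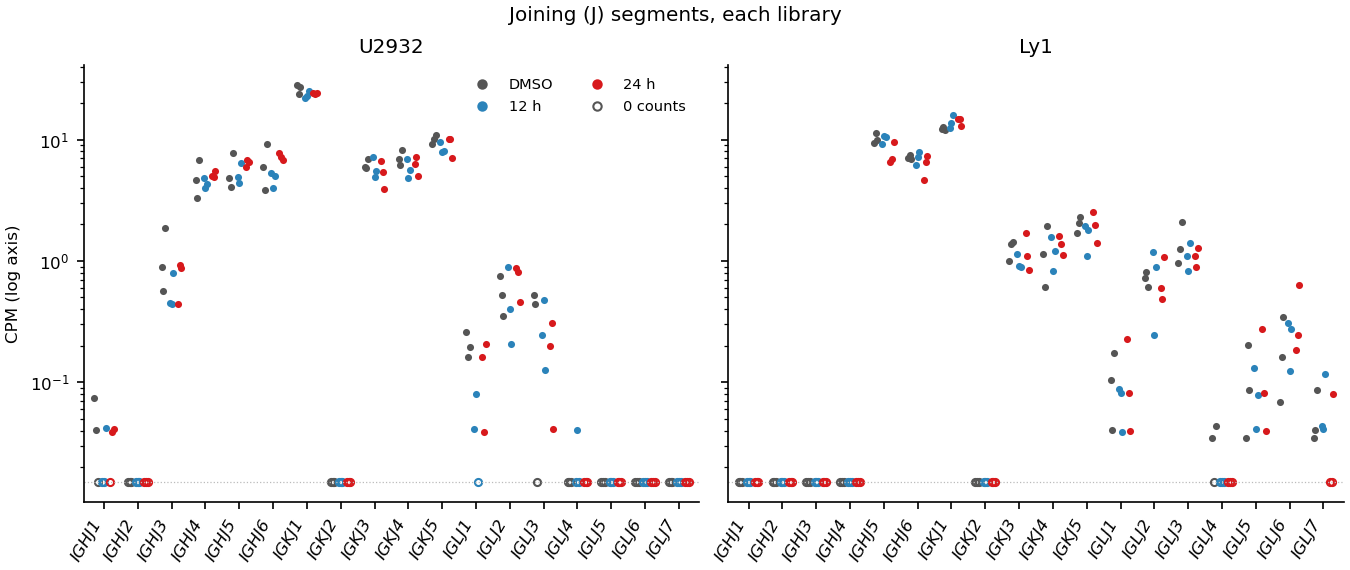
CPM (log axis) of the heavy chain, kappa and lambda J segments in each of the 9 libraries of U2932 (left) and of Ly1 (right), coloured by DMSO, 12 h and 24 h; open circles on the dotted line are libraries with 0 counts. IGHJ3 and IGHJ4 have counts in U2932 and none in Ly1, and IGKJ1 leads in both lines.

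The lines were then compared in DMSO with edgeR's quasi-likelihood test over 16191 genes, Benjamini-Hochberg adjusted over all of them. Of 77 immunoglobulin genes that passed the filter on low counts, 54 (70.1%) had an adjusted p under 0.05, 31 higher and 23 lower in U2932. Over all genes 63% were called, 33.1% higher and 29.9% lower, so the share among the immunoglobulin genes was near that background. The median log2 fold change was 0.56 over the 77, against 0.02 over all genes tested. A gene that is high in 1 line alone passes the filter.

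IGHM was higher in U2932 by 1.89 ± 0.10 on the log2 scale (SE; edgeR adjusted p = 1.75e-11) and IGKC by 1.14 ± 0.13 (adjusted p = 6.23e-07). IGHG3 was also higher, by 2.42 ± 0.20, and IGHA1 by 0.997 ± 0.328 (edgeR adjusted p = 0.0147). The IGHA1 call was lost without replicate 3 of U2932 DMSO (log2 0.69) or without replicate 1 of Ly1 DMSO (log2 0.84). Lower in U2932 were IGHE (log2 -10.55 ± 0.33), IGHG4 (-6.57 ± 0.23), IGHG1 (-6.01 ± 0.32), IGHA2 (-4.45 ± 0.32) and IGHD (-2.93 ± 0.18), all with edgeR adjusted p of 4.83e-09 or less. The size of the IGHE value rests on few U2932 counts, and was -11.33 without replicate 3 and -9.96 without replicate 1 of U2932 DMSO. IGKV3-20 differed by 9.44 ± 0.27. IGKV3-11 had 0, 0 and 5 counts in U2932 DMSO, so the size of its fitted difference is uncertain (-8.36 with all libraries, and -12.16 without replicate 3 of U2932 DMSO, which leaves no count in U2932). IGLV1-44 was lower in U2932 by a log2 of -2.78 ± 0.31 (edgeR adjusted p = 5.88e-07). IGLC2 (log2 -0.60 ± 0.36, adjusted p = 0.162) and IGLC3 (-1.27 ± 0.87, adjusted p = 0.220) did not pass the test in edgeR. Without the 6 replicate 3 libraries both passed, at -0.23 for IGLC2 and -0.55 for IGLC3. With no filter on low counts both also passed, at -0.58 for IGLC2 (edgeR adjusted p = 0.000792) and -1.26 for IGLC3 (edgeR adjusted p = 2.01e-08). Genes with no count in 1 line's DMSO libraries are given as bounds, and beyond those above U2932 was at least 11.2-fold higher for IGHV5-51 and Ly1 at least 21.4-fold higher for IGLV3-27.

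A list of 34 genes that express, assemble or edit immunoglobulins was set beside these. In DMSO 28 of the 33 tested list genes (84.8%) differed between the lines by edgeR's test, 11 higher and 17 lower in U2932, beside 63% of all genes (33.1% higher and 29.9% lower). The median log2 of the list was -0.47. Genes known from plasma cells moved in both directions. The plasma cell markers SDC1 and TNFRSF17, outside the list, were higher in U2932. SDC1 was at 16.9 ± 0.337 CPM in U2932 and 0.115 ± 0.063 CPM in Ly1. TNFRSF17 was at 186 ± 24.5 CPM in U2932 and 4.76 ± 0.433 CPM in Ly1. Higher in U2932 were the factors IRF4 (544 ± 17.9 CPM in U2932, 13.6 ± 5.995 CPM in Ly1), XBP1 (239 ± 59.7 CPM in U2932, 16.6 ± 4.67 CPM in Ly1) and PRDM1 (33.8 ± 9.35 CPM in U2932, 0.253 ± 0.120 CPM in Ly1). ELL2, an elongation factor that favours secreted heavy chain mRNA, was at 40.9 ± 7.42 CPM in U2932 and 0.882 ± 0.102 CPM in Ly1. The octamer factor POU2F2 was at 533 ± 32.1 CPM in U2932 and 85.4 ± 7.57 CPM in Ly1. Their log2 differences were 5.32, 3.85, 7.06, 5.54 and 2.64, each with an edgeR adjusted p of 5.48e-09 or less. Lower in U2932 was JCHAIN, a plasma cell marker that joins IgM and IgA polymers, at 1059 ± 259 CPM in U2932 and 1753 ± 412 CPM in Ly1 (log2 -0.73 ± 0.17, edgeR adjusted p = 0.000898). Its ranges overlapped through replicate 3, at 1357 CPM in U2932 and 1279 CPM in Ly1. The B cell coactivator POU2AF1 was lower too, at 731 ± 217 CPM in U2932 and 1215 ± 216 CPM in Ly1 (log2 -0.73 ± 0.16, edgeR adjusted p = 0.000732). MZB1, a chaperone of antibody-secreting cells, was at 60.4 ± 7.21 CPM in U2932 and 82.0 ± 9.44 CPM in Ly1 (log2 -0.44 ± 0.16, edgeR adjusted p = 0.0209). RAG2, a subunit of the recombinase, was also lower, at 0.493 ± 0.440 CPM in U2932 and 6.25 ± 1.04 CPM in Ly1 (log2 -3.65 ± 0.75, edgeR adjusted p = 0.000571). In each of these the SD is over 3 libraries. The log2 difference of RAG2 was -2.94 without all replicate 3 libraries and -4.25 without replicate 2 of U2932 DMSO.

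Replicate 3 of U2932 differed from replicates 1 and 2 in its lambda genes. The values are means over DMSO and both times. Of the 40 members that averaged at least 1 CPM over replicates 1 and 2, 5 were at least 4-fold lower in replicate 3 (12.5%), and all 5 were among the 12 lambda genes. Over all genes at that level, 175 of 12647 (1.38%) were as much lower. That level was required of replicates 1 and 2 alone, so a gene below it there could not enter, however high in replicate 3. The counts and medians given here are therefore one-sided. The 12 lambda genes had a median log2 ratio of -1.67, the 15 heavy chain genes 0.04 and the 13 kappa genes 0.08. IGLC3 averaged 0.394 CPM in replicate 3 and 5.93 CPM in replicates 1 and 2. IGLV2-23 averaged 0.0408 CPM in replicate 3 and 1.53 CPM in the others, and IGLV2-14 0.0539 CPM in replicate 3 and 1.04 CPM in the others. IGLV3-10 averaged 0.164 CPM in replicate 3 and 2.04 CPM in the others, and IGLV5-45 0.560 CPM in replicate 3 and 4.55 CPM in the others. The lambda V leader IGLV6-57 did not share this, with 17.3 CPM in replicate 3 and 14.8 CPM in replicates 1 and 2. The segments that led each chain differed little, with ratios of replicate 3 to the others of 0.905 for IGHM, 0.895 for IGHV4-39, 0.865 for IGKC and 0.852 for IGKV3-20. IGHA1 and IGHA2 were higher in replicate 3 (ratios 1.73 and 1.92), and IGHG1 and IGHG2 lower (0.479 and 0.352). In Ly1 none of 37 members was 4-fold lower in replicate 3. This split was found in the data and has no test.

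**Figure D4:**
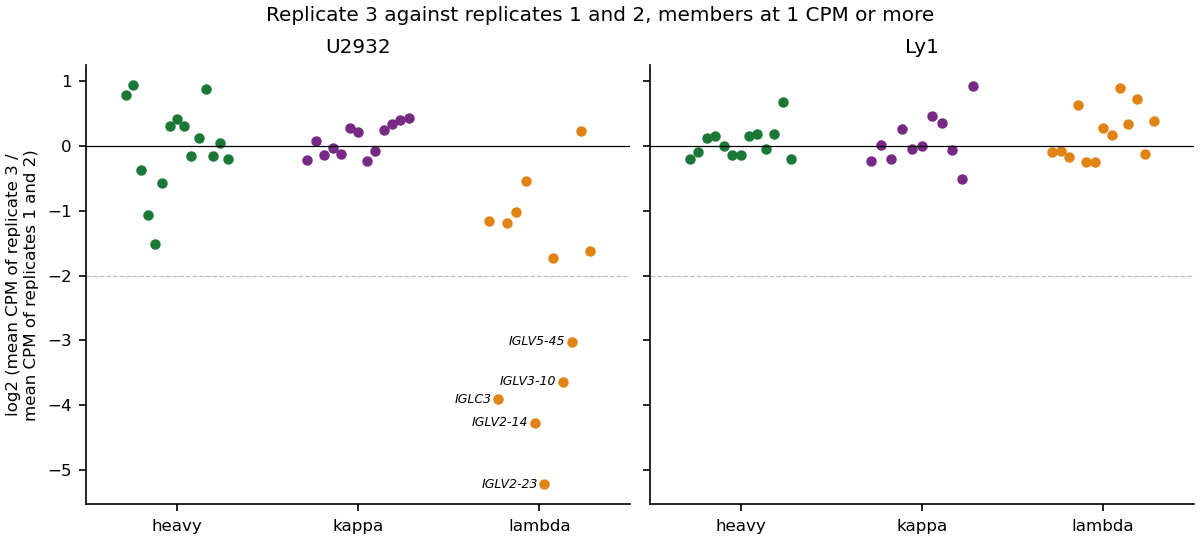
The log2 ratio of the mean CPM of replicate 3 to that of replicates 1 and 2, over DMSO, 12 h and 24 h, for members at 1 CPM or more in replicates 1 and 2, in U2932 (left) and Ly1 (right), by locus; the dashed line marks a 4-fold lower value. The 5 lambda genes named above lie below it in U2932, and no gene of Ly1 does.

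IGHM, IGKC, IGHV4-39 and IGKV3-20 led their classes in all 9 libraries of U2932, with and without SGC-GAK-1. Of its 64 tested immunoglobulin genes none passed edgeR's quasi-likelihood test at 12 h or at 24 h, where 0% of all 15138 genes did at either time. At an unadjusted p under 0.05 there was 1 gene at 12 h (IGKV3D-7, log2 -0.49 ± 0.20, edgeR adjusted p = 0.999) and 1 at 24 h (IGHV3-72, log2 -1.03 ± 0.42, edgeR adjusted p = 0.406). These are 1.56% of the 64 at each time, beside 3.42% of all genes at 12 h and 11.3% at 24 h. With the replicate number as a block, edgeR called 1 of the 64 and 4.41% of all genes at 24 h. Without the block, DESeq2 called 0 members at both times. The median log2 fold change of the 64 was -0.10 at 12 h and -0.0989 at 24 h, beside -0.00459 at 12 h and 0.00311 at 24 h over all genes.

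In U2932 IGHM was at 11456, 11582 and 9785 CPM in DMSO, 11153, 10868 and 10002 CPM at 12 h and 9992, 9672 and 9496 CPM at 24 h. The 24 h values overlapped those of DMSO only through replicate 3 of DMSO. The log2 fold change at 24 h was -0.15 ± 0.10 (edgeR adjusted p = 0.601). IGHV4-39 was at 1800, 1798 and 1424 CPM in DMSO, 1667, 1678 and 1525 CPM at 12 h and 1504, 1364 and 1442 CPM at 24 h. The last of these differed from DMSO by a log2 of -0.20 ± 0.11 (edgeR adjusted p = 0.507). IGKC and IGKV3-20 differed at 24 h by -0.14 ± 0.11 and -0.10 ± 0.11 on the log2 scale. The share of IGHV4-39 among heavy chain V counts stayed between 98.2 and 98.8% in all 9 libraries, that of IGKV3-20 among kappa V counts between 97.6 and 98.7%, and that of IGKC among light chain constant counts between 99.0 and 99.7%.

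IGHA1 in U2932 was at 21.4, 21.6 and 36.9 CPM in DMSO, 20.8, 23.9 and 35.9 CPM at 12 h and 13.5, 11.5 and 24.6 CPM at 24 h. Within each replicate number the 24 h value was below the DMSO value, and replicate 3 was the highest in every group. Its log2 fold change at 24 h was -0.67 ± 0.33 (edgeR adjusted p = 0.494). With the replicate number as a block it was -0.69 and IGHA1 was the 1 gene of 64 called (edgeR adjusted p = 0.00614; 4.41% of all genes were called). Without the 3 replicate 3 libraries 5 of 66 were called at 24 h, with 9.01% of all genes: IGHA1, IGHM and IGHV4-39 lower and IGHJ5 and IGHJ6 higher.

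In Ly1 none of 56 tested immunoglobulin genes passed edgeR's test at 12 h, where 0% of 14005 genes did, and none at 24 h, where 0.55% did (0.343% higher and 0.207% lower). At an unadjusted p under 0.05 there was 1 at 12 h (IGKV2-30, log2 -0.81 ± 0.26, edgeR adjusted p = 0.542) and 7 at 24 h (12.5%, against 16.5% of all genes). DESeq2 called 0 at 12 h and 2 at 24 h, IGKC and IGKV3-11, where it called 4.09% of all genes. The median log2 fold change of the 56 was -0.0996 at 12 h and 0.06 at 24 h, beside -0.00543 at 12 h and -0.01 at 24 h over all genes.

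At 24 h the smallest adjusted p values among the 56 were those of IGKV3-11 and IGKC, both of the kappa chain. IGKC was at 1100, 1103 and 1073 CPM in DMSO, 1202, 1127 and 1202 CPM at 12 h and 1873, 1667 and 1164 CPM at 24 h in Ly1. Replicates 1 and 2 of 24 h were well above the other 7 libraries, and replicate 3 lay within the values at 12 h. The log2 fold change at 24 h was 0.52 ± 0.15 (edgeR adjusted p = 0.140). IGKV3-11 was at 21.5, 24.3 and 23.4 CPM in DMSO, 25.04, 25.99 and 24.76 CPM at 12 h and 31.1, 30.5 and 27.8 CPM at 24 h. All 3 libraries at 24 h were above all 3 in DMSO, and the log2 fold change was 0.37 ± 0.09 (edgeR adjusted p = 0.111).

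The other 24 h values of Ly1 with an unadjusted p under 0.05 were IGLC2 (log2 0.45 ± 0.16), IGLV1-44 (0.36 ± 0.13), IGHJ5 (-0.42 ± 0.17), IGHV4-31 (-0.99 ± 0.39) and IGHV3-30 (-1.60 ± 0.56), with edgeR adjusted p from 0.210 to 0.255. IGHV3-30 was at 1.08, 0.973 and 0.736 CPM in DMSO and 0.0918, 0.122 and 0.678 CPM at 24 h. In each of these the replicate 3 library of 24 h was the nearest of the 3 to the DMSO values or within them. Without the 3 replicate 3 libraries 20 of 53 members were called at 24 h, 17 higher and 3 lower, beside 46.2% of all genes. IGKC then differed by 0.69, IGHM by 0.28 and IGHE by 0.44 on the log2 scale.

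IGHM in Ly1 was at 2849, 2919 and 3071 CPM in DMSO, 2812, 2690 and 2958 CPM at 12 h and 3601, 3384 and 2864 CPM at 24 h (log2 0.16 ± 0.11 at 24 h, edgeR adjusted p = 0.506). The IGHG1 share of heavy chain constant counts was 6.85, 6.86 and 7.54% at 24 h, against 8.53, 8.80 and 8.20% in DMSO. These ranges did not overlap, and the exact two-sided permutation p was 0.1. The IGHM share was 81.6, 81.5 and 81.5% at 24 h, against 80.9, 80.2 and 78.4% in DMSO (exact permutation p = 0.1). IGHV1-24 held 56.0, 59.0 and 44.9% of heavy chain V counts at 24 h, against 39.1, 39.1 and 42.7% in DMSO (exact permutation p = 0.1). At 12 h its share lay on the other side of DMSO, at 37.0, 35.5 and 32.9% (exact permutation p = 0.1). Kappa V counts summed to 49.999, 49.0 and 49.1 CPM at 24 h, against 37.3, 41.9 and 45.8 CPM in DMSO (exact permutation p = 0.1). Over 33 such sums and shares and 132 exact tests against DMSO in both lines, 16 reached 0.1, the smallest possible, and the smallest Benjamini-Hochberg adjusted p was 0.825.

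All members together were at 6541, 6057 and 4899 CPM at 24 h, against 4813, 4948 and 5226 CPM in DMSO in Ly1 (exact permutation p = 0.3). In U2932 they were at 16743, 16179 and 15412 CPM at 24 h, against 18990, 19116 and 16101 CPM in DMSO (exact permutation p = 0.3).

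The list of 34 genes had no call by edgeR in any of the 4 comparisons with DMSO. At an unadjusted p under 0.05 there were 2 list genes at 12 h and 6 at 24 h in U2932 (6.06% and 18.2% of those tested, beside 3.42% and 11.3% of all genes). In Ly1 there were 1 at 12 h and 5 at 24 h (3.23% and 16.1%, beside 6.13% and 16.5% of all genes). JCHAIN was in both 24 h lists, with a log2 fold change of -0.51 ± 0.15 in U2932 (edgeR adjusted p = 0.291) and -0.43 ± 0.16 in Ly1 (edgeR adjusted p = 0.220). In U2932 the smallest adjusted p at 24 h was that of VPREB3, a surrogate light chain gene, at -0.47 ± 0.08 (edgeR adjusted p = 0.217). In Ly1 it was that of IGLL5, a lambda-like gene, at 0.67 ± 0.21 (edgeR adjusted p = 0.164). IGLL5 was at 23.04, 27.44 and 44.55 CPM in DMSO and 54.87, 52.46 and 43.78 CPM at 24 h in Ly1, with no rise in replicate 3.

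**Figure D5:**
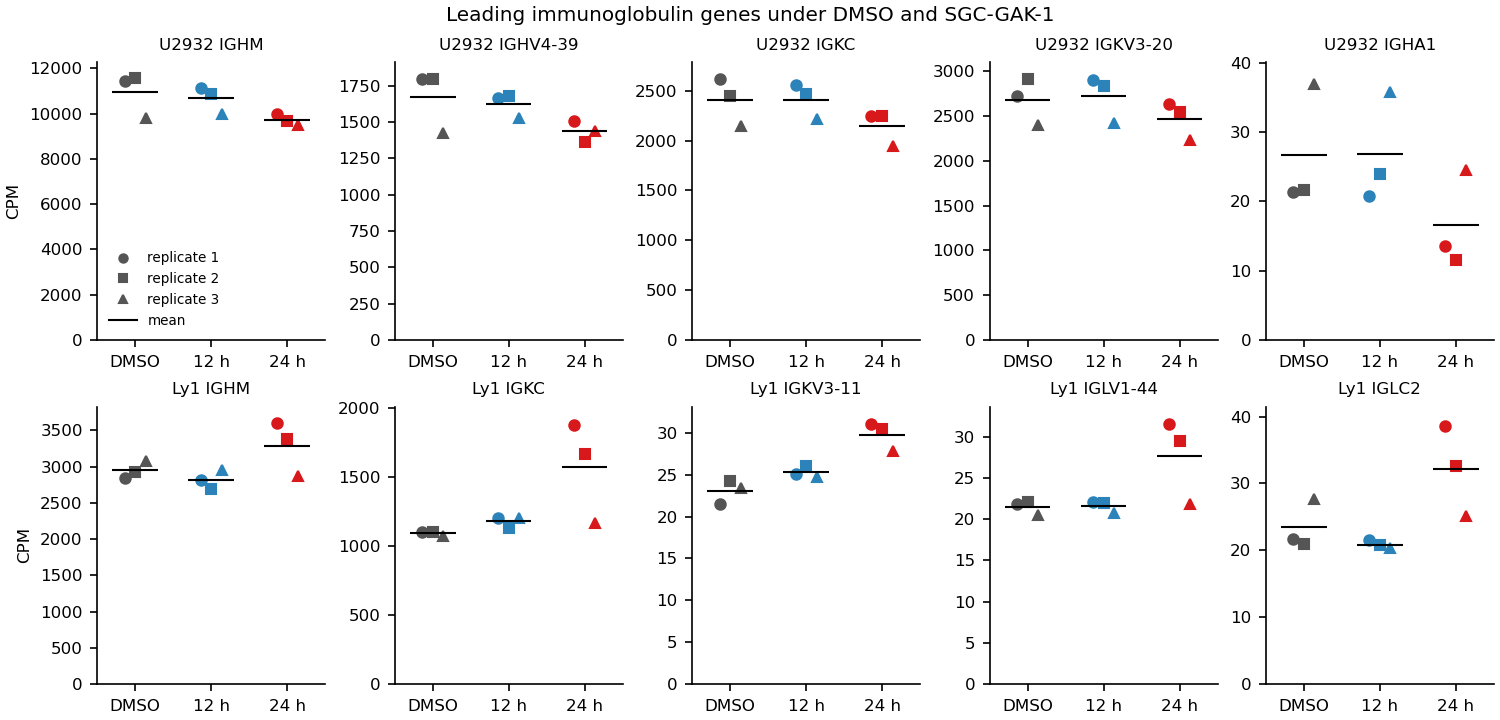
CPM (axes from 0) of leading immunoglobulin genes of U2932 (top) and Ly1 (bottom) in each library under DMSO and after 12 h and 24 h of SGC-GAK-1; marker shapes give the replicate number and lines the mean of 3. IGKC of Ly1 reaches 1873 and 1667 CPM in 2 libraries at 24 h and 1164 CPM in replicate 3, and IGHA1 of U2932 is highest in replicate 3 of every group.

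The difference between the lines in their response was tested as an interaction over all 18 libraries. None of 77 members passed edgeR's test at 12 h or 24 h, as 0% of 16191 genes did, and DESeq2 also called 0. At an unadjusted p under 0.05 there were 1 member at 12 h and 9 at 24 h (1.3% and 11.7%, beside 2.5% and 8.33% of all genes). At 24 h the response of U2932 was below that of Ly1 by a log2 of -0.69 ± 0.19 for IGKC (edgeR adjusted p = 0.342), -0.33 ± 0.14 for IGHM (adjusted p = 0.553) and -1.001 ± 0.463 for IGHA1 (adjusted p = 0.593). Without the 6 replicate 3 libraries 12 of 78 were called at 24 h, with 26.6% of all genes, these 3 among them.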

How the data were processed

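The deposited files hold whole-number counts of reads per gene for 18 libraries. Per the submitters' processing notes, cutadapt, STAR, Picard and hg38 were used. Per the labels' protocols, libraries were made with NuGEN Universal Plus mRNA-Seq and 14 PCR cycles, and 2 sequencing runs were combined. The counting tool, its use of strand, its treatment of reads that fit several genes and of duplicates, and the annotation release are not stated in the labels or the processing notes. These choices decide how reads of near-identical or overlapping segments are split, and reads across a somatic junction or with many somatic mutations may not align to germline segments.

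All 213 immunoglobulin genes matched GENCODE release 29 by identifier and coordinates, and exon lengths and sequences come from it. CPM are counts per 1000000 of the TMM-scaled library size (edgeR 4.0.16, limma 3.58.1, R 4.3.3). Each line's 9 libraries were fitted together over the genes kept by filterByExpr, with the group as the only term, and all 18 for the comparison between lines and the interaction. The quasi-likelihood test was adjusted by Benjamini-Hochberg over all genes tested, with a threshold of 0.05. The SE is the log2 fold change divided by the square root of its F statistic. Class sums and shares were compared by exact two-sided permutation tests, which cannot go below 0.1 with 3 against 3. A gene at 0 in 1 line was set to 3 counts per library, the limit a count of 0 allows. Identity is of global alignments of last exons (Biopython 1.88). Sums and permutation tests were run in scipy 1.17.1 and numpy 2.4.6, and figures drawn in matplotlib 3.10.9, under Python 3.11.15 with pandas 2.3.3. The fit was tried on simulated counts for U2932 at 12 h against DMSO only. These had the same spread setting for every gene and no replicate effect. The simulation therefore cannot show how the fits behave where replicates differ, as replicate 3 does here.

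The immunoglobulin genes, the list of 34 related genes and the markers were chosen with earlier results of these data known. Genes named are the leading segments and constant genes of each class, those with the largest differences or the smallest p, and those whose call changed with a setting. Replicate numbers are in the labels without a stated meaning. Same-numbered libraries deviated together in U2932 (correlation across genes of the 24 h and DMSO deviations 0.284 to 0.524; 12 h 0.338 to 0.623) and in Ly1 at 12 h (0.156 to 0.356). In Ly1 at 24 h the range was 0.0496 to 0.187. Alternatives were DESeq2 1.42.0, other scalings, no filter, a replicate block, fits on only the compared groups, each library left out, all replicate 3 libraries left out, class shares per kilobase, and class totals with pseudogenes. Some genes of the lists and some segment sequences are not reported here.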

Additional observations from a re-analysis of the deposited data

How the results depend on the processing

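Of 77 results with an alternative, 41 kept their direction and side of the threshold, or their value within 1 SD, under all alternatives run. With the replicate number as a block, 1 gene was called in U2932 at 24 h (IGHA1), and the block changed no other call on members in the comparisons with DMSO. Without all replicate 3 libraries, 5 were called in U2932 and 20 in Ly1 at 24 h, and 12 for the difference between the lines at 24 h. DESeq2 called 2 (4.09% of all genes) and the test with no filter 2 (2.9%) in Ly1 at 24 h, and no filter gave 4 (0.388%) for the line difference at 24 h. Leaving out 1 library at a time gave 0 to 8 calls in Ly1 at 24 h (3 without DMSO replicate 3, with 5.67% of all genes, and 8 without 24 h replicate 3, with 21.2%) and 0 to 2 for the line difference at 24 h (2 without 24 h replicate 3 of Ly1, with 3.57%). IGHJ6 in U2932 against Ly1 lay between -0.546 and 0.07944 with 1 library left out, and was above 0 only without U2932 DMSO replicate 2. It became a call without U2932 DMSO replicate 3 (-0.546, edgeR adjusted p = 0.0361) and without all replicate 3 libraries (-0.57, edgeR adjusted p = 0.00456). With pseudogenes in the class total, shares became 92.96% for IGKC, 18.04% for IGHV1-24, 15.8% for IGHV3-23, 3.446% for IGHV4-31, 50.85% for IGKV3-11, 30.83% for IGLV1-44 and 14.97% for IGLV6-57 in Ly1, and 97.11% for IGHV4-39 in U2932. Per kilobase, IGHM held 98.8% in U2932 and 81.32% in Ly1, IGHG1 5.873% and IGLV6-57 21.97% in Ly1, and IGLV1-44 6.275% in U2932. The larger class totals and the lengths enter these shares by construction, and the cause of the other changes was not tested. Low counts limit the V, J and lambda values, many of which are near 1 CPM.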

Other observations

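Immunoglobulin pseudogenes are outside the gene types described above, and those named here were chosen after their values were seen. Summed over the 201 pseudogenes of the table, they came to 35.3 ± 1.17 CPM in U2932 and 84.1 ± 10.9 CPM in Ly1 in DMSO (SD, n = 3 each). In Ly1 the lambda constant pseudogene IGLC6 was at 23.1, 24.2 and 31.4 CPM in DMSO, 14.5, 14.1 and 17.3 CPM at 12 h and 14.5, 13.5 and 17.02 CPM at 24 h. All 6 treated libraries were below all 3 DMSO libraries. Its log2 fold change was -0.80 ± 0.15 at 24 h (edgeR adjusted p = 0.0489, range over alternatives 2.62e-07 to 0.248) and -0.78 ± 0.15 at 12 h (edgeR adjusted p = 0.250, DESeq2 adjusted p = 0.00228). The 24 h call was lost with library size as the only scaling, with only the compared groups, and without replicate 1 or 2 of DMSO or of 24 h, while the log2 fold change stayed between -0.89 and -0.73 in these 6. The neighbouring IGLC7 of Ly1 was at 17.7, 19.5 and 22.6 CPM in DMSO, 18.3, 17.4 and 16.4 CPM at 12 h and 26.9, 23.8 and 15.7 CPM at 24 h. IGLC6 had 1 count in U2932.

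The heavy chain V pseudogene IGHV5-78, beyond IGHV4-39 in both lines, held 4073 counts in U2932 and 5126 in Ly1. In U2932 it was at 14.6, 13.8 and 14.1 CPM at 24 h, against 18.4, 20.3 and 22.7 CPM in DMSO, a log2 fold change of -0.51 ± 0.12 (edgeR adjusted p = 0.250). The lambda V pseudogene IGLV3-24 had 9 counts in U2932 and 2353 in Ly1.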
